A study of Mus musculus with 9 samples.

Results

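The genes described here are 10 members of the BCL2 family, read as the rows of the 9 count tables whose gene symbol is Bcl2, Bcl2l1, Bcl2l2, Mcl1, Bax, Bak1, Bcl2l11, Pmaip1, Bid or Bmf. All 10 were found among 40213 gene symbols, and all 10 passed the filter on low counts, which left 16562 genes to test. The study used mouse embryonic stem (ES) cells in culture with LIF, a cytokine that keeps them self-renewing. One group was a Niwa stable line carrying EWS-OCT4, in which the pluripotency factor OCT4 is fused to EWS, a protein that binds RNA (3 libraries), and another was a Niwa stable line with OCT4 (3 libraries). Both stable lines were given 1 µg/ml doxycycline, which was meant to lower the cells' own OCT4. J1 ES cells, a common laboratory line, were the control (3 libraries), and for them the labels give neither a construct nor a doxycycline dose. The labels do not say what drives the constructs, nor whether libraries numbered within a stable line are separate clones or repeats of 1 clone. The host line, the construct and any difference in drug therefore cannot be told apart in comparisons with J1, and p-values measure spread among libraries alone, part or all of which may be technical.

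The BCL2 family decides whether the outer membrane of the mitochondrion stays closed or is opened in apoptosis. The pro-survival proteins BCL2, BCL-XL (encoded by Bcl2l1), BCL-W (Bcl2l2) and MCL1 hold the effectors BAX and BAK (Bak1) in check. The BH3-only proteins BIM (Bcl2l11), NOXA (Pmaip1), BID and BMF respond to stress signals and bind the pro-survival proteins. BIM and BID also activate the effectors. Pluripotent stem cells are known to sit close to the threshold of mitochondrial apoptosis. Transcript levels do not measure protein or cleavage, and both matter for this family, since MCL1 and NOXA are short-lived proteins and BID is activated by cutting.

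Library totals ran from 21149358 to 24786305 counts, and levels are given as CPM, counts scaled to a common library size with edgeR's TMM factors. Pou5f1, the gene of OCT4, averaged 26.8 ± 2.12 CPM in EWS-OCT4 libraries, 164.9 ± 2.61 CPM in OCT4 libraries and 568.7 ± 61.8 CPM in J1 libraries (SD, n = 3 each), and reads of an introduced sequence may or may not be counted there. Of 10 pluripotency markers, all 10 averaged at least 1 CPM in each group. They summed to between 3798 and 3909 CPM in EWS-OCT4, 3491 and 3561 in OCT4 and 4481 and 4821 in J1 libraries. Zfp42 averaged 758, 429 and 1425 CPM in EWS-OCT4, OCT4 and J1 libraries, and Tfcp2l1 660, 679 and 232 CPM. Like Zfp42 and Pou5f1, Sox2, Esrrb and Fgf4 had their highest means in J1. Those of Nanog, Klf4, Tfcp2l1 and Dppa5a were highest in OCT4 libraries, and that of Utf1 in EWS-OCT4 libraries. The summed level of 10 trophectoderm markers lay between 256 and 270 CPM in the EWS-OCT4 libraries, 494 and 529 in the OCT4 libraries and 137 and 162 in the J1 libraries, with Elf5 under 1 CPM on average in each group. Cdx2, which defines trophectoderm, averaged 1.70 CPM in EWS-OCT4, 7.96 in OCT4 and 0.0581 in J1 libraries, and Hand1 2.14, 78.2 and 1.78 CPM in EWS-OCT4, OCT4 and J1 libraries. Krt7 (16.0, 10.5 and 4.54 CPM in EWS-OCT4, OCT4 and J1 libraries) and Krt8 (73.0, 67.7 and 21.7 CPM) had their highest means in EWS-OCT4, as did Elf5. The means of the remaining trophectoderm markers were highest in OCT4 libraries. The summed level of 8 fibroblast markers was 28.6 to 31.99 CPM in EWS-OCT4, 57.8 to 64.1 in OCT4 and 80.9 to 100.3 in J1 libraries. Among them Col1a1 averaged 2.81, 5.91 and 31.2 CPM in EWS-OCT4, OCT4 and J1 libraries, Thy1 21.1, 28.6 and 44.9 CPM and Pdgfrb 5.62, 24.4 and 12.0 CPM. Lum had 2 counts in all in EWS-OCT4, 0 in OCT4 and 0 in J1 libraries, and Col3a1, Twist2 and Postn averaged under 1 CPM in each group. The 8 primitive endoderm markers summed to between 123 and 127 CPM in the EWS-OCT4 libraries, 179 and 196 in the OCT4 libraries and 264 and 282 in the J1 libraries. Lamb1 made up most of these sums, at 114, 164 and 243 CPM on average in EWS-OCT4, OCT4 and J1 libraries. In the same order Gata6 averaged 0.382, 9.34 and 1.76 CPM and Gata4 0.888, 2.98 and 2.20 CPM, both highest in OCT4. The mean of Sox7 was highest in EWS-OCT4 libraries, and those of Sox17, Pdgfra, Dab2 and Foxa2 in J1 libraries. The 5 neuroectoderm markers summed to between 110 and 111 CPM in EWS-OCT4, 116 and 118 in OCT4 and 96.9 and 121 in J1 libraries. Single markers differed more than these sums. Pax6 averaged 10.5, 0.455 and 2.02 CPM in EWS-OCT4, OCT4 and J1 libraries. The means of Sox1, Nes and Map2 were highest in OCT4 libraries, and that of Tubb3 in J1 libraries. The part of any such cell types in the differences below was not tested, and fewer cells of a type and less RNA per cell cannot be told apart in bulk libraries. The chi-square per degree of freedom between replicates lay between 3.21 and 29.2, and was highest between J1 replicates 1 and 2.

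For 7 of the 10 members (Bcl2l2, Mcl1, Bak1, Bcl2l11, Pmaip1, Bid and Bmf), all 3 OCT4 libraries lay outside the range of the other 6 libraries, as they did for 44.8% of all 16562 tested genes. Against J1, 8 of the 10 members were higher and 1 was lower in the OCT4 line. Relative to OCT4 cells, EWS-OCT4 cells had 5 members lower and 2 higher. Between the EWS-OCT4 line and J1, 3 members were higher and 3 lower. Bmf, a BH3-only gene, averaged 5.39 ± 0.845 CPM in EWS-OCT4, 29.8 ± 1.14 in OCT4 and 23.7 ± 0.893 in J1 libraries. These counts need the background beside them, because the 3 lines differed at most genes. Of all 16562 genes, 66.5% were called between the EWS-OCT4 and OCT4 lines (34.6% lower and 31.9% higher), 61.9% between the EWS-OCT4 line and J1 (30.3% higher and 31.6% lower) and 67.0% between the OCT4 line and J1 (34.3% higher and 32.7% lower). A call means an adjusted p under 0.05 in edgeR's quasi-likelihood test over all 3 groups. Values did not overlap between the groups for 8, 5 and 8 members in the 3 comparisons, in the order just given, against 72.9%, 65.7% and 68.4% of all genes. Taken without direction, 7, 6 and 9 of the 10 members were called, which for EWS-OCT4 against OCT4 and EWS-OCT4 against J1 is near the background. The 9 members called for OCT4 against J1 include Bcl2, and the distance of that count from 67.0% was not tested. Bcl2 passed the filter on low counts only through the EWS-OCT4 line. Among the 9 other members, 1 was higher and 5 lower in EWS-OCT4 than in OCT4 cells, 2 higher and 3 lower in EWS-OCT4 than in J1 cells, and 7 higher and 1 lower in OCT4 than in J1 cells. The 3 comparisons share libraries in pairs and are not independent of each other.

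**Figure D1:**
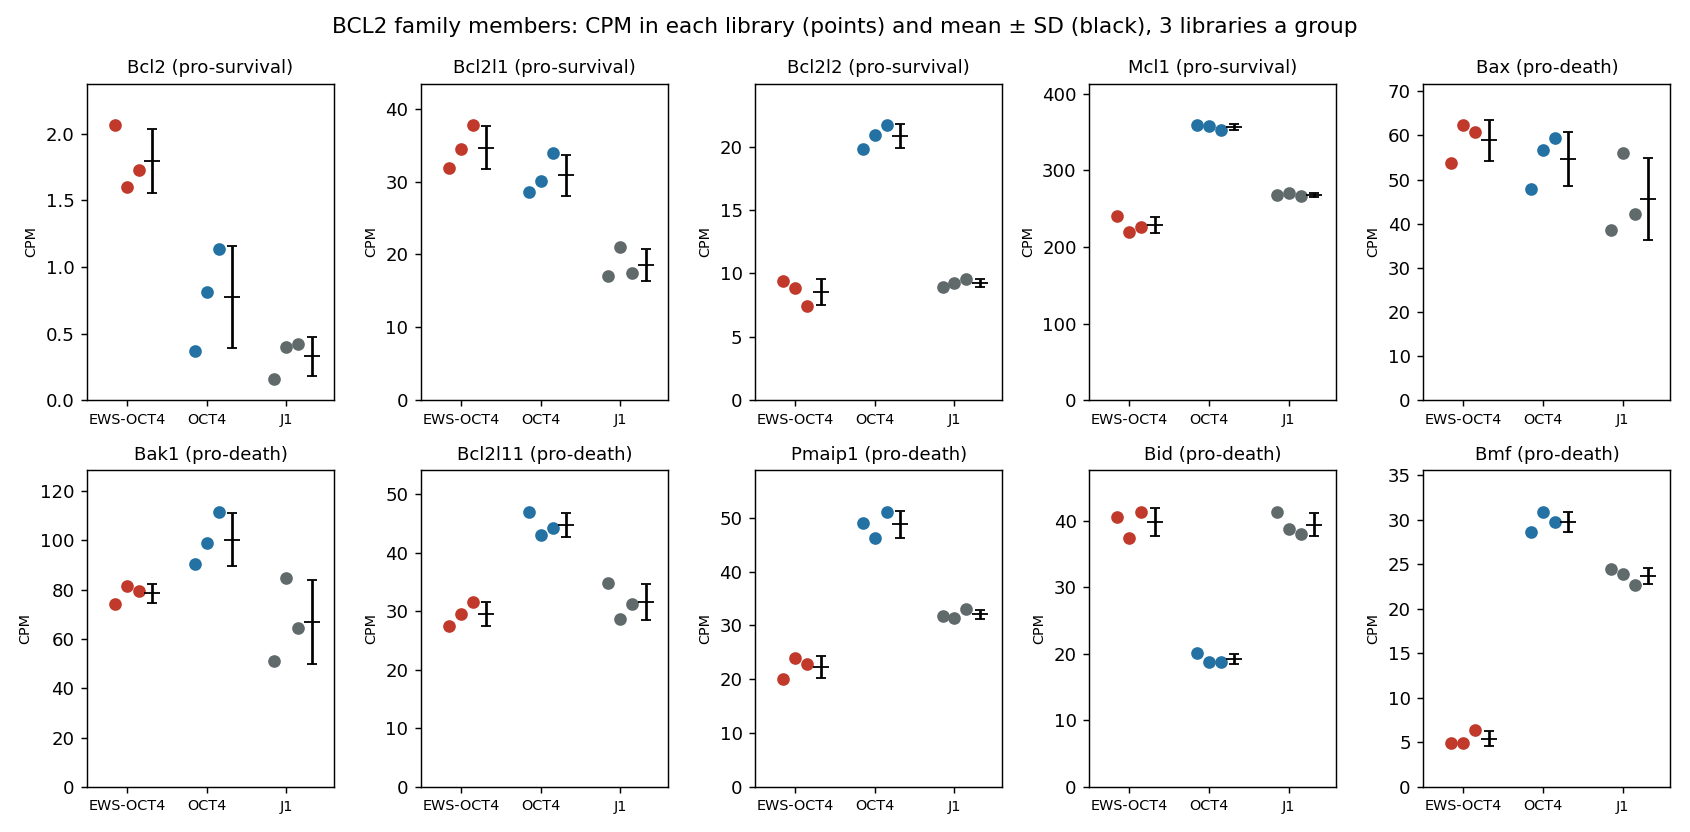
Level of each member in CPM (y axis, from 0, a scale of its own per gene) in the 9 libraries, with the EWS-OCT4, OCT4 and J1 groups from left to right; coloured points are libraries, black marks are the mean and SD of 3. Bmf lies between 4.89 and 6.36 CPM in the EWS-OCT4 libraries and above 22 CPM in all others, and Bid lies between 18.8 and 20.1 CPM in the OCT4 libraries and above 37 CPM in all others.

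Among the pro-survival genes, Mcl1 had the most counts and Bcl2 the fewest. Mcl1, whose protein is needed early in mouse development, had 241, 219 and 226 CPM in the 3 EWS-OCT4 libraries, 359, 358 and 352 CPM in the OCT4 libraries and 267, 271 and 266 CPM in the J1 libraries. The 3 groups did not overlap, with the EWS-OCT4 line lowest and the OCT4 line highest. The log2 fold change was -0.64 (SE 0.0630) for EWS-OCT4 against OCT4, -0.23 (SE 0.0629) for EWS-OCT4 against J1 and 0.41 (SE 0.0628) for OCT4 against J1, with adjusted p = 8.87e-08, 0.00433 and 1.56e-05 from edgeR. Mcl1 kept these 3 calls in each of the 17 alternative analyses that had no replicate block.

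Bcl2l1, the gene of BCL-XL, was higher in both stable lines than in J1. It had 31.8, 34.4 and 37.8 CPM in the EWS-OCT4 libraries, 28.6, 30.04 and 33.99 CPM in the OCT4 libraries and 17.1, 21.1 and 17.4 CPM in the J1 libraries. The stable lines overlapped each other and lay above each J1 library. The EWS-OCT4 line exceeded J1 1.87-fold (log2 0.90, SE 0.0996, edgeR adjusted p = 4.83e-07) and the OCT4 line exceeded J1 1.67-fold (log2 0.74, SE 0.1, edgeR adjusted p = 4.1e-06). The difference between the stable lines, 0.17 on the log2 scale (SE 0.0965), did not pass the edgeR test (adjusted p = 0.134), and passed when J1 was left out of the fit (adjusted p = 0.0308; range over the 17 alternatives with no replicate block 0.0308 to 0.399).

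Bcl2l2, the gene of BCL-W, followed another order. It had 9.38, 8.83 and 7.41 CPM in the EWS-OCT4 libraries, 19.9, 20.9 and 21.7 CPM in the OCT4 libraries and 8.96, 9.22 and 9.59 CPM in the J1 libraries. Only the OCT4 line was set apart, since the ranges of the EWS-OCT4 line and J1 overlapped. The EWS-OCT4 line was 2.44-fold lower than the OCT4 line (log2 -1.29, SE 0.102, edgeR adjusted p = 5.27e-09), and the OCT4 line was 2.25-fold higher than J1 (log2 1.17, SE 0.1, edgeR adjusted p = 1.22e-08). Between the EWS-OCT4 line and J1 the log2 difference was -0.12 (SE 0.108, edgeR adjusted p = 0.356). In GENCODE release M21, Bcl2l2 shares 594 exon bases on the same strand with Gm20521, so its counts are uncertain to that extent.

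Bcl2 itself was barely detected. Its raw counts were 43, 37 and 41 in the EWS-OCT4 libraries, 8, 18 and 27 in the OCT4 libraries and 4, 10 and 9 in the J1 libraries. These are 1.80 ± 0.241 CPM in EWS-OCT4, 0.772 ± 0.384 in OCT4 and 0.328 ± 0.145 in J1 libraries (SD, n = 3 each). The EWS-OCT4 libraries lay above all others, while the OCT4 and J1 libraries overlapped. The log2 fold change was 1.20 (SE 0.348) for EWS-OCT4 against OCT4, 2.45 (SE 0.398) for EWS-OCT4 against J1 and 1.25 (SE 0.442, 2.38-fold) for OCT4 against J1, and edgeR's adjusted p for OCT4 against J1 was 0.0185. That call was lost without OCT4 replicate 3 (log2 0.86, adjusted p = 0.131) or J1 replicate 1 (log2 0.91, adjusted p = 0.0799). Without the EWS-OCT4 libraries in the fit Bcl2 did not pass the low-count filter, so OCT4 and J1 could not be compared for it, and a minimum of 5 CPM in 3 libraries removed it from every comparison. As it was tested only because the EWS-OCT4 line was high, its fold changes for that line are a description. It also shares 558 exon bases with an antisense gene, D630008O14Rik, and whether counting used strand is not given in the sources used here.

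Of the effector genes, Bax and Bak1, none differed by as much as 2-fold. Bax had 53.7, 62.4 and 60.7 CPM in the EWS-OCT4 libraries, 47.8, 56.7 and 59.4 CPM in the OCT4 libraries and 38.6, 56.0 and 42.2 CPM in the J1 libraries. All 3 groups overlapped, and J1 replicate 2 stood above the other J1 libraries. That library also had the lowest share of mitochondrial counts in J1, 12.52% against 15.66% and 14.7%, whose part was not tested. The EWS-OCT4 line was called 1.29-fold above J1 (log2 0.37, SE 0.125, edgeR adjusted p = 0.0203), but that call was lost with upper-quartile scaling (0.0525) and without EWS-OCT4 replicate 2 (0.0551), EWS-OCT4 replicate 3 (0.0598), J1 replicate 1 (0.0795) or J1 replicate 3 (0.0718). Bax did not pass for EWS-OCT4 against OCT4 (log2 0.11, SE 0.124, edgeR adjusted p = 0.461) or OCT4 against J1 (log2 0.26, SE 0.125, edgeR adjusted p = 0.0811). For OCT4 against J1 it was 0.44 with edgeR adjusted p = 4e-04 without J1 replicate 2, and 0.35 with adjusted p = 0.0281 without OCT4 replicate 1.

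Bak1 had 74.2, 81.6 and 79.7 CPM in the EWS-OCT4 libraries, 90.5, 98.9 and 112 CPM in the OCT4 libraries and 51.0, 84.8 and 64.6 CPM in the J1 libraries. The OCT4 libraries lay above all others, and the wide J1 range, again with replicate 2 on top, enclosed the EWS-OCT4 libraries. The OCT4 line was 1.503-fold above J1 (log2 0.59, SE 0.154, edgeR adjusted p = 0.00612). The EWS-OCT4 line did not pass against OCT4 (log2 -0.35, SE 0.153, edgeR adjusted p = 0.0634), although the groups did not overlap, and passed in 7 of the 17 alternatives that had no replicate block, with adjusted p from 9.05e-05 to 0.188. Among these were DESeq2 (0.0377), limma-voom (0.0305), the fit without J1 (9.05e-05) and leaving out J1 replicate 1 (0.00447) or J1 replicate 2 (0.00245). Against J1 the EWS-OCT4 line differed by 0.23 (SE 0.155, edgeR adjusted p = 0.215), or by 0.44 with adjusted p = 0.0015 without J1 replicate 2. Bak1 shares 256 exon bases with Ggnbp1 on the opposite strand, which averaged 7.70, 4.47 and 5.83 CPM in EWS-OCT4, OCT4 and J1 libraries, and Bax shares 192 exon bases with Gm45808 on the same strand.

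Among the BH3-only genes, differences ran in both directions. Bmf, whose protein in other cells is bound to dynein light chain until damage or loss of attachment frees it, had 4.90, 4.89 and 6.36 CPM in the EWS-OCT4 libraries, 28.6, 30.9 and 29.8 CPM in the OCT4 libraries and 24.5, 23.9 and 22.7 CPM in the J1 libraries. No groups overlapped. The EWS-OCT4 line was 5.51-fold lower than the OCT4 line (log2 -2.46, SE 0.105) and 4.38-fold lower than J1 (log2 -2.13, SE 0.106), with edgeR adjusted p = 1.83e-12 and 2.18e-11. The OCT4 line exceeded J1 1.26-fold (log2 0.33, SE 0.0896, edgeR adjusted p = 0.0035). Changes of at least 2-fold were called for 5, 2 and 3 members, and for 24.3%, 20.5% and 26.5% of all genes, in EWS-OCT4 against OCT4, EWS-OCT4 against J1 and OCT4 against J1.

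Pmaip1, the gene of NOXA, which binds MCL1 in particular, gave the same order of groups. It had 20, 23.9 and 22.9 CPM in the EWS-OCT4 libraries, 49.0, 46.2 and 51.1 CPM in the OCT4 libraries and 31.8, 31.3 and 33 CPM in the J1 libraries. Again no groups overlapped. The EWS-OCT4 line was 2.19-fold below the OCT4 line (log2 -1.13, SE 0.0810, edgeR adjusted p = 1.48e-09) and 1.44-fold below J1 (log2 -0.52, SE 0.0819, edgeR adjusted p = 2.82e-05). The OCT4 line was 1.52-fold above J1 (log2 0.61, SE 0.0788, edgeR adjusted p = 2.41e-06).

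Bcl2l11, the gene of BIM, passed the test only where the OCT4 line was one of the pair. It had 27.5, 29.6 and 31.6 CPM in the EWS-OCT4 libraries, 47, 43.1 and 44.2 CPM in the OCT4 libraries and 34.9, 28.7 and 31.2 CPM in the J1 libraries. The EWS-OCT4 and J1 libraries overlapped below the OCT4 line. The log2 fold change was -0.60 (SE 0.0844) for EWS-OCT4 against OCT4, -0.10 (SE 0.0854) for EWS-OCT4 against J1 and 0.50 (SE 0.0839) for OCT4 against J1, with edgeR adjusted p = 7.05e-06, 0.336 and 4.34e-05.

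Bid, which links death receptors and caspase-8 to the mitochondrion, ran the other way. It had 40.6, 37.4 and 41.4 CPM in the EWS-OCT4 libraries, 20.1, 18.8 and 18.8 CPM in the OCT4 libraries and 41.3, 38.8 and 38.0 CPM in the J1 libraries. The OCT4 line was the low one here, and the EWS-OCT4 and J1 libraries overlapped. The EWS-OCT4 line was 2.07-fold above the OCT4 line (log2 1.05, SE 0.0776, edgeR adjusted p = 2.27e-09), and the OCT4 line was 2.05-fold below J1 (log2 -1.03, SE 0.0775, edgeR adjusted p = 2.07e-09). Between the EWS-OCT4 line and J1 the log2 difference was 0.01 (SE 0.0739, edgeR adjusted p = 0.876), with a sign that changed in 4 alternatives. Bid was the sole member lower in the OCT4 line than in J1 by this test.

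**Figure D2:**
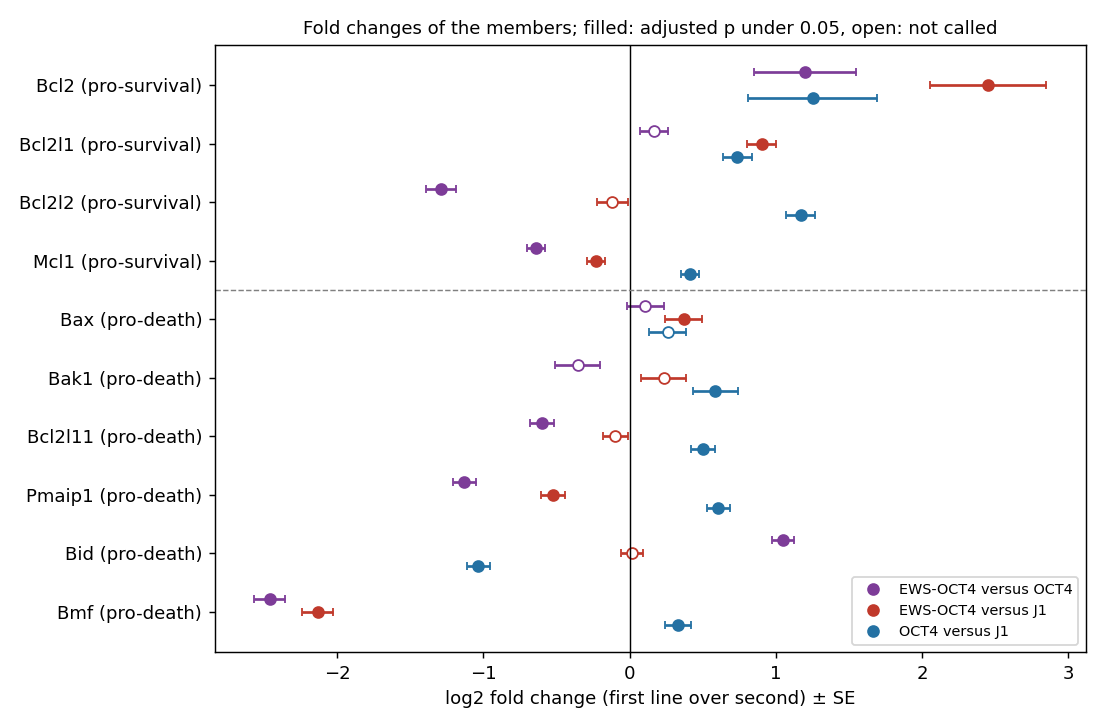
Log2 fold change with its SE (x axis) of each member (y axis, pro-survival above the dashed line and pro-death below it) in the 3 comparisons, each written as the first line over the second; filled points have adjusted p under 0.05 and open points do not. Bmf lies at -2.46 and -2.13 for the EWS-OCT4 line against the OCT4 line and J1, and Bid at 1.05 and -1.03 for EWS-OCT4 against OCT4 and OCT4 against J1.

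The sequence upstream of the start is shown for 4 pro-death genes, an effector and 3 BH3-only genes. For Bcl2l11 and Bmf, which have several annotated starts, the window shown is the one with the most motif matches. Windows of 9 of the 10 members were read from RefSeq's table for build GRCm38.p6, and Pmaip1 is named only. The count files use build GRCm39, so these positions are not positions in the files' build. Each window is the 250 bases before 1 annotated start (1 of 2 for Bcl2l11 and 1 of 3 for Bmf), read 5′ to 3′ on the gene's strand. Capitals mark matches on either strand to the E-box CACGTG, the GC box GGGCGG, the forkhead core GTAAACA, or the p53 decamer, by its name.
Bax, chr7:45466899-45467148, minus strand: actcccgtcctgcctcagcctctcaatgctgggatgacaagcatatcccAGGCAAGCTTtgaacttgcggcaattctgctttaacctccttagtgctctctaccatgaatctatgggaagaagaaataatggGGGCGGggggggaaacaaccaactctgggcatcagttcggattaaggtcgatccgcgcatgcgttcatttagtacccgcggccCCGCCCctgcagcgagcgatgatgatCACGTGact
Bcl2l11, chr2:128125788-128126037, plus strand: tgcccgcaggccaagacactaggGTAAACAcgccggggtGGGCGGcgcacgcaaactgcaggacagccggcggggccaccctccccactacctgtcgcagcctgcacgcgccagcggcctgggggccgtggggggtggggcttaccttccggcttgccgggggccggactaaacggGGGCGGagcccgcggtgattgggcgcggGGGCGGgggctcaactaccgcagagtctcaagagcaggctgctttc
Bid, chr6:120916825-120917074, minus strand: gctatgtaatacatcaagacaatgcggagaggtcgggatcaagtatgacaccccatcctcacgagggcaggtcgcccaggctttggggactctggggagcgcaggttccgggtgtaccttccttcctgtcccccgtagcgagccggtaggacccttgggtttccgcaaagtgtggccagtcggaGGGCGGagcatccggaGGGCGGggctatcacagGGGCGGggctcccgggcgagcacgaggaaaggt
Bmf, chr2:118544588-118544837, minus strand: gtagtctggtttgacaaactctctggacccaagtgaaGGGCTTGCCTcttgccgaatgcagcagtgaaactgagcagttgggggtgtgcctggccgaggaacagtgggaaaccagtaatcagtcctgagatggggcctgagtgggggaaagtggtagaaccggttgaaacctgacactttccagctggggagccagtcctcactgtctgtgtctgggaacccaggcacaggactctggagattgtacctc
The octamer ATGCAAAT bound by OCT4 and the CRE TGACGTCA were also searched and had 0 matches in the 14 windows of the 9 members. In these windows Bax held 1 E-box, 2 GC boxes and 1 p53 decamer, Bcl2l11 1 forkhead core and 3 GC boxes, Bid 3 GC boxes, and Bmf 1 p53 decamer. The other Bcl2l11 window held 2 GC boxes and no forkhead core, and the other Bmf windows held 0 matches to any of the 6 motifs. Of the members whose sequence is not shown, Bcl2 held 7 GC boxes and Mcl1 and Bcl2l2 1 each. The windows of Bak1 and Bcl2l1 held 0 matches to any of the 6 motifs. Of all 32851 upstream windows in the table, 6.02% held the E-box, 32.7% the GC box, 3.17% the forkhead core, 7.13% the p53 decamer, 1.60% the octamer and 1.55% the CRE. A match is a description of letters and not a bound site.

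Levels of different genes were set against each other per kilobase of exon, with lengths from GENCODE M21. In the EWS-OCT4 line Bax (67.95 ± 5.34 CPM per kilobase) and Mcl1 (66.9 ± 3.22) led and differed by less than their SD. In the OCT4 line Mcl1 led at 104.3 ± 1.13, followed by Bax at 63.0 ± 7.04 and Bak1 at 42.0 ± 4.48. In J1 Mcl1 led at 78.4 ± 0.672 CPM per kilobase, followed by Bax at 52.6 ± 10.6 and Bak1 at 28.0 ± 7.12. Bmf, per kilobase, ranked ninth of the 10 in the EWS-OCT4 line at 1.12 ± 0.175, eighth in the OCT4 line at 6.16 ± 0.235 and sixth in J1 at 4.90 ± 0.185. Bcl2 was the lowest member in each group, at 0.1965 ± 0.0263 CPM per kilobase in EWS-OCT4, 0.0843 ± 0.0420 in OCT4 and 0.0358 ± 0.0158 in J1 libraries (SD, n = 3). Bax has the shortest exon length of the members, 867 bases, and Bcl2 the longest, 9157 bases, so other transcript models would move these ranks.

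Ratios of a pro-survival to a pro-death gene within a library cancel gene length and library scaling when the same ratio is compared across groups. They were taken on counts plus 0.5 and are given without a test, because the members were chosen with results of these data known. The Mcl1 to Pmaip1 log2 ratio was 3.59, 3.19 and 3.31 in the EWS-OCT4 libraries, 2.87, 2.96 and 2.78 in the OCT4 libraries and 3.07, 3.11 and 3.01 in the J1 libraries. The ratio was thus highest in the EWS-OCT4 line although Mcl1 itself was lowest there, since Pmaip1 was lower by more. The Bcl2l1 to Bcl2l11 log2 ratio was 0.21, 0.22 and 0.26 in the EWS-OCT4 libraries, against -0.72, -0.52 and -0.38 in the OCT4 libraries and -1.03, -0.45 and -0.84 in the J1 libraries. The EWS-OCT4 libraries lay above all others, and the OCT4 and J1 ratios overlapped. The sign of a count ratio depends on the lengths of the genes: per kilobase of exon, the mean of Bcl2l1 exceeded that of Bcl2l11 in all 3 groups. The Bcl2l1 to Bax log2 ratio averaged -0.77 ± 0.0876 in EWS-OCT4, -0.82 ± 0.0889 in OCT4 and -1.29 ± 0.118 in J1 libraries, with both stable lines above J1 and overlapping each other. The Bcl2 to Bax log2 ratio averaged -5.02 ± 0.303 in EWS-OCT4, -6.23 ± 0.635 in OCT4 and -7.12 ± 0.59 in J1 libraries and rests on the few Bcl2 counts.

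As a mean over each side, the 4 pro-survival genes minus the 6 pro-death genes gave a log2 difference of -0.65 ± 0.150 in EWS-OCT4, -1.11 ± 0.199 in OCT4 and -1.76 ± 0.174 in J1 libraries (SD, n = 3). The order of the stable lines in that mean depended on Bcl2. Without Bcl2, an alternative chosen after its counts were seen, the difference was 0.47 ± 0.120 in EWS-OCT4, 0.49 ± 0.0132 in OCT4 and -0.07 ± 0.0186 in J1 libraries, so the stable lines overlapped and both stood above J1. In the edgeR test, EWS-OCT4 cells had 1 of 4 pro-survival genes higher and 2 lower than OCT4 cells, and 1 of 6 pro-death genes higher and 3 lower. Against J1 the EWS-OCT4 line had 2 of 4 pro-survival genes higher and 1 lower, and 1 of 6 pro-death genes higher and 2 lower. The OCT4 line had 4 of 4 pro-survival genes higher than J1, and 4 of 6 pro-death genes higher and 1 lower. Bcl2, tested only because the EWS-OCT4 line was high, was the 1 pro-survival gene higher in EWS-OCT4 than in OCT4 cells. It was also among those higher than J1 in both stable lines. In these 3 comparisons 31.9%, 30.3% and 34.3% of all tested genes were higher, and 34.6%, 31.6% and 32.7% were lower. The median log2 fold change of the 10 members was -0.48, -0.04 and 0.54 for EWS-OCT4 against OCT4, EWS-OCT4 against J1 and OCT4 against J1, beside -0.04, 0.00 and 0.01 over all tested genes.

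**Figure D3:**
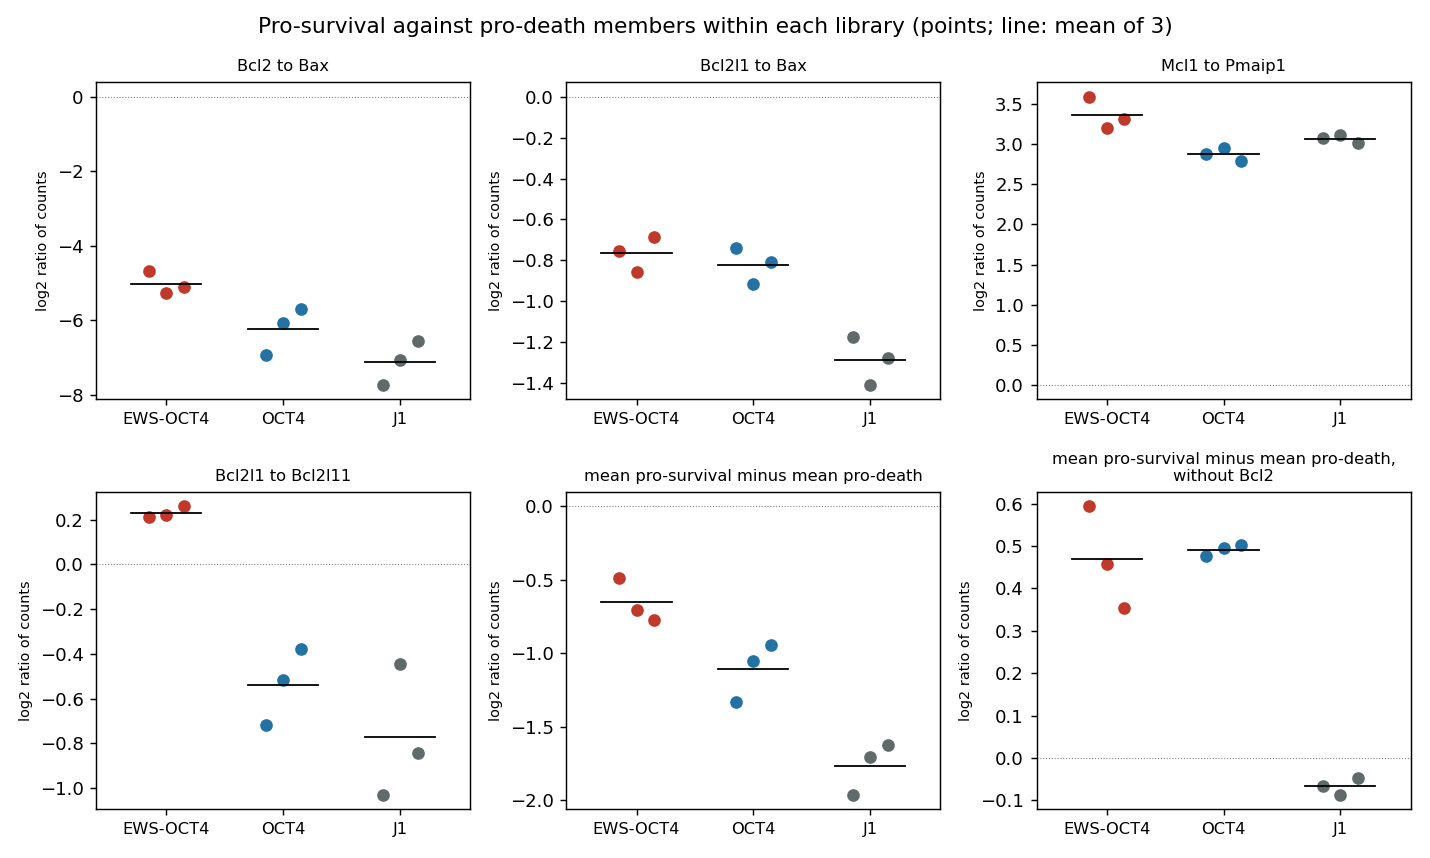
Log2 ratio of counts of pro-survival to pro-death genes within each library (y axis, a scale of its own per panel), with the EWS-OCT4, OCT4 and J1 groups from left to right; points are libraries and lines the mean of 3. The Bcl2l1 to Bcl2l11 ratio lies higher in the 3 EWS-OCT4 libraries than in the other 6, and the mean difference without Bcl2 lies between -0.09 and -0.05 in J1 and between 0.36 and 0.59 in the stable lines.

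Other members of the family were read from a list of 16 further genes, of which 12 had enough counts to test. In the EWS-OCT4 line 2 of these were higher and 9 lower than in the OCT4 line (median log2 fold change -0.50), 3 higher and 5 lower than in J1 (median -0.41), and in the OCT4 line 6 were higher and 5 lower than in J1 (median 0.09). The background for this and the following lists is that 31.9%, 30.3% and 34.3% of all tested genes were higher in these 3 comparisons. Lower were 34.6%, 31.6% and 32.7%. Bbc3 encodes PUMA, a BH3-only protein that binds all pro-survival members. It had 13.3 ± 2.14 CPM in EWS-OCT4, 36.1 ± 3.49 in OCT4 and 16.5 ± 5.15 in J1 libraries, and was 2.70-fold lower in the EWS-OCT4 than in the OCT4 line (log2 -1.43, SE 0.201, edgeR adjusted p = 9.48e-05). Bcl2l14, a less studied relative, averaged 5.99 ± 0.318, 18.2 ± 0.393 and 5.25 ± 0.197 CPM in EWS-OCT4, OCT4 and J1 libraries, a log2 difference of -1.60 (SE 0.102) between the stable lines. Both lay highest in the OCT4 line, as did Pmaip1, Bcl2l11, Bmf and Bak1 and the pro-survival genes Mcl1 and Bcl2l2. In the other direction, Bcl2l12 averaged 6.997 CPM in EWS-OCT4, 4.61 in OCT4 and 5.48 in J1 libraries and was higher in the EWS-OCT4 than in the OCT4 line (log2 0.60, SE 0.137). Becn1, whose product acts in autophagy and binds BCL2, averaged 46.4, 32.3 and 67.6 CPM in EWS-OCT4, OCT4 and J1 libraries. It was higher in the EWS-OCT4 than in the OCT4 line (log2 0.52, SE 0.0679), and each stable line was below J1 (log2 -0.54 for EWS-OCT4 and -1.07 for OCT4). Becn1 is on chromosome 11, whose tested genes had medians of -0.51 for EWS-OCT4 and -0.47 for OCT4 against J1.

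Downstream of the family, 10 genes of mitochondrial release and the apoptosome gave 2 calls up and 5 down for EWS-OCT4 against OCT4 (median log2 -0.09), 3 and 5 against J1 (median -0.17), and 3 and 3 in the OCT4 line against J1 (median 0.08). Over all tested genes, 66.5%, 61.9% and 67.0% were called in these comparisons. Apaf1, the scaffold of the apoptosome, averaged 40.4 ± 2.04, 62.4 ± 2.72 and 49.1 ± 5.51 CPM in EWS-OCT4, OCT4 and J1 libraries, and Diablo, whose product blocks caspase inhibitors, 44.5 ± 0.970, 30.6 ± 0.874 and 29.1 ± 0.517 CPM in EWS-OCT4, OCT4 and J1 libraries. The EWS-OCT4 line differed from the OCT4 line by -0.63 (log2, SE 0.0817) for Apaf1 and by 0.54 (SE 0.0691) for Diablo. Htra2 was also higher there (0.42, SE 0.108), at 12.99 CPM in EWS-OCT4, 9.74 in OCT4 and 8.71 in J1 libraries. The X-linked gene Aifm1 was lower (-0.68, SE 0.0793), at 89.3 CPM in EWS-OCT4, 143 in OCT4 and 87.0 in J1 libraries, and the 567 tested X-linked genes had a median of -0.51 in this comparison. Casp6, an executioner caspase, was 3.61-fold lower in the EWS-OCT4 than in the OCT4 line, at 6.32 ± 0.955 CPM in EWS-OCT4, 22.8 ± 1.38 in OCT4 and 7.49 ± 0.870 in J1 libraries.

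Of 7 tested inhibitors of caspases and death signals, EWS-OCT4 cells had 2 higher and 3 lower than OCT4 cells (median log2 0.08), 2 and 2 against J1 (median -0.20), and 3 and 4 in the OCT4 line against J1 (median -0.24). For this list and the death receptor list, the share of all tested genes called was 66.5%, 61.9% and 67.0% in these comparisons. The X-linked gene Xiap, which encodes an inhibitor of caspases, averaged 91.0 ± 5.22, 147 ± 6.29 and 69.1 ± 9.75 CPM in EWS-OCT4, OCT4 and J1 libraries. Xiap was lower in the EWS-OCT4 than in the OCT4 line (log2 -0.69, SE 0.0869), as was Birc3 (log2 -0.70, SE 0.132), at 6.24, 10.1 and 7.62 CPM in EWS-OCT4, OCT4 and J1 libraries. Aven, whose product restrains the apoptosome, was higher (log2 0.54, SE 0.101), at 23.9, 16.5 and 19.4 CPM in EWS-OCT4, OCT4 and J1 libraries. Cflar, whose product FLIP restrains death receptor signalling, was higher too (log2 0.31, SE 0.109), at 12.4 CPM in EWS-OCT4, 10 in OCT4 and 14.2 in J1 libraries. Of 8 genes for death receptors and adaptors, EWS-OCT4 cells had 4 higher and 3 lower than OCT4 cells (median -0.06), 2 and 4 against J1 (median -0.27), and 3 and 3 in the OCT4 line against J1 (median -0.09). The adaptor gene Cradd was higher (log2 1.06, SE 0.123), at 9.56, 4.59 and 8.13 CPM in EWS-OCT4, OCT4 and J1 libraries, as was the kinase gene Ripk1 (log2 0.77, SE 0.119), at 18.3, 10.7 and 6.63 CPM. The receptor genes Tnfrsf1a (log2 -1.30, SE 0.144) and Tnfrsf10b (log2 -0.56, SE 0.0931) were lower, at 3.69 and 16.7 CPM in EWS-OCT4, 9.12 and 24.6 in OCT4, and 6.59 and 30.2 in J1 libraries.

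The last list held 22 genes known to act on the family's transcription or stability, of which 21 were tested. In the EWS-OCT4 line 5 were higher and 12 lower than in the OCT4 line (median log2 -0.45) and 4 higher and 7 lower than in J1 (median -0.08), and in the OCT4 line 9 were higher and 5 lower than in J1 (median 0.17). Here too the background was 66.5%, 61.9% and 67.0% of all tested genes called in these comparisons. Foxo3, a forkhead factor known to induce Bcl2l11 and Bbc3 in other cells, averaged 56.0 ± 0.571, 129.7 ± 7.21 and 83.8 ± 3.29 CPM in EWS-OCT4, OCT4 and J1 libraries, and Ddit3, the stress factor CHOP, 10.1 ± 1.78, 42.4 ± 3.26 and 12.5 ± 3.10 CPM in EWS-OCT4, OCT4 and J1 libraries. Both were lower in the EWS-OCT4 than in the OCT4 line, by log2 -1.21 (SE 0.0662) and -2.06 (SE 0.162). Trp53, the gene of p53, which is known to induce Bax, Pmaip1 and Bbc3, averaged 271 ± 1.59, 169.7 ± 3.53 and 309 ± 10 CPM in EWS-OCT4, OCT4 and J1 libraries, and Mdm2, a p53 target that limits p53, 249 ± 2.50, 508 ± 16.9 and 209 ± 13.8 CPM in EWS-OCT4, OCT4 and J1 libraries. The Trp53 transcript was lowest in the OCT4 line (log2 -0.87, SE 0.0620, against J1), where Mdm2, Pmaip1 and Bbc3 had their highest means; the highest mean of Bax was in the EWS-OCT4 line, and all 3 groups overlapped for Bax. Trp73, a p53 relative, was higher in the EWS-OCT4 than in the OCT4 line (log2 1.12, SE 0.151), at 8.26, 3.81 and 6.6 CPM in EWS-OCT4, OCT4 and J1 libraries. Trp53 is on chromosome 11, whose tested genes had a median log2 fold change of -0.06 for EWS-OCT4 against OCT4, -0.51 for EWS-OCT4 against J1 and -0.47 for OCT4 against J1.

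**Figure D4:**
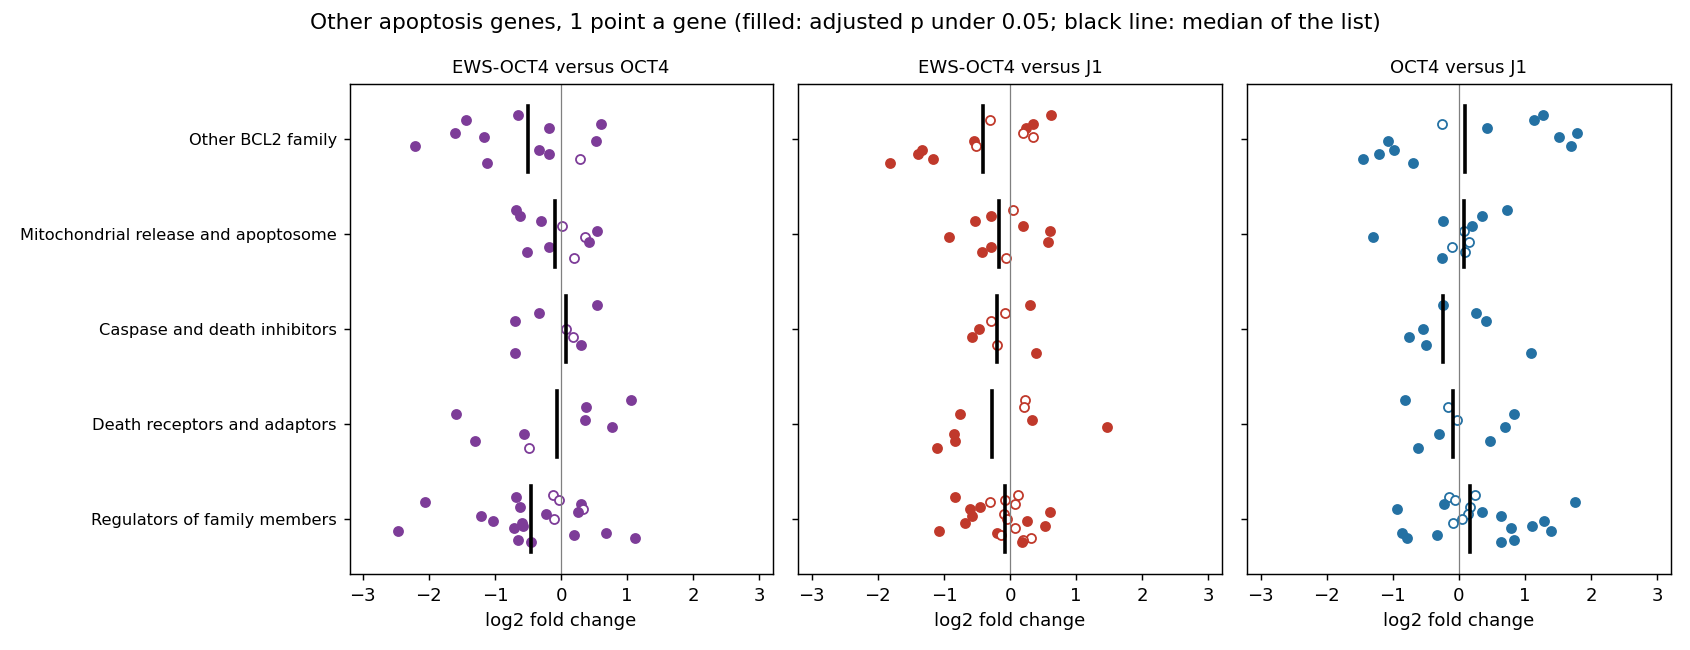
Log2 fold change (x axis) of the tested genes of 5 further lists of apoptosis genes (y axis), with the comparison named above each panel as the first line over the second; each point is a gene, filled where adjusted p is under 0.05, and the black line is the median of the list. The medians of the other BCL2 family genes are -0.50, -0.41 and 0.09 from left to right.

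The chromosomes that carry the members, by GENCODE M21, showed no shift of that size. Their median log2 fold change lay between -0.13 and 0.05 for EWS-OCT4 against OCT4, -0.17 and 0.16 for EWS-OCT4 against J1, and -0.13 and 0.09 for OCT4 against J1. Chromosome 2 carries Bcl2l1, Bcl2l11 and Bmf, and its medians were -0.01 for EWS-OCT4 against OCT4, 0.10 for EWS-OCT4 against J1 and 0.07 for OCT4 against J1.

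Genes with the pattern most like a member over the 9 libraries were sought among genes averaging at least 5 CPM, by Pearson's r of log2 CPM, as a description in which the 3 groups set most of r. Nearest to Bid was Ddx18 (r = 0.998), to Bmf Cracdl (0.996), to Pmaip1 Tob1 (0.996) and to Mcl1 BC034090 (0.996). Nearest to Bcl2l2 was Tef (r = 0.995), to Bcl2l11 Ampd3 (0.993), to Bcl2l1 Myl6 (0.989) and to Bak1 Col9a2 (0.986). Nearest to Bcl2 was Gm13421 (r = 0.984) and to Bax Edf1 (r = 0.958). The SD between libraries of a group reached 49.7% of the mean for Bcl2 (OCT4), 25.45% for Bak1 (J1) and 20.2% for Bax (J1), and was under 16% for the other members in each group.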

How the data were processed

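Counts of reads per gene, as the authors deposited them, are whole numbers in a separate table for each library, with no normalization. Libraries were made from total RNA with the CORALL RNA-seq V2 kit, per the labels' protocols; build GRCm39 and the tools GATK, Salmon, STAR and fastp are named in the submitters' processing notes. Not given in the sources used here: versions, gene annotation, strand setting and treatment of molecular identifiers.

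Genes were filtered with filterByExpr (minimum count 10, minimum total 15), scaled by TMM and fitted in edgeR 4.0.16 (R 4.3.3) with all 9 libraries in 3 groups, robust glmQLFit and glmQLFTest, with Benjamini-Hochberg adjustment over 16562 genes. SE is the size of the log2 fold change over the square root of F. The script was tested on simulated counts. Alternatives were 2 other scalings, 2 other filters, DESeq2 1.42.0, limma-voom (3.58.1), 6-library fits, a replicate block, removal of mitochondrial genes and Gm26917, and each library left out. Exon lengths and chromosomes came from GENCODE M21, matched by symbol for 15065 tested genes. The members and lists were chosen with earlier results of these data known. Named list genes were up to 2 per direction with the largest called change in EWS-OCT4 versus OCT4 and at least 5 CPM, plus Trp53, Mdm2 and Pou5f1; 1 further list and some of its genes are not reported here.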

Additional observations from a re-analysis of the deposited data

Results flagged for a closer look

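Mcl1, Pmaip1 and Bmf were called in opposite directions against J1 in the stable lines and were also called between those lines. Mcl1 had a log2 difference of -0.6411 between EWS-OCT4 and OCT4, with -0.23 against J1 in the EWS-OCT4 line and 0.41 in the OCT4 line. Pmaip1 had -1.1296 between EWS-OCT4 and OCT4, with -0.52 against J1 in the EWS-OCT4 line and 0.61 in the OCT4 line. Bmf had -2.4617 between EWS-OCT4 and OCT4, with -2.13 against J1 in the EWS-OCT4 line and 0.33 in the OCT4 line. The J1 libraries are shared by these contrasts. Groups of 3 libraries are too small for a search for outlying libraries.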

How the results depend on the processing

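Counts of genes and members called kept within 1.5 times their main values, except that a minimum of 5 CPM in 3 libraries left 1 member called higher for EWS-OCT4 versus OCT4 in place of 2, because Bcl2 was not tested. Of 536 alternative fold changes of members, 510 kept their direction and side of the threshold. The 4 reversals were all Bid in EWS-OCT4 versus J1, at -0.0332 with upper-quartile scaling, -0.0298 with the 5 CPM minimum, -0.0128 without EWS-OCT4 replicate 3 and -0.0072 without J1 replicate 3, none of them called, with values from -0.0128 to 0.0691 when 1 library was left out; the cause was not tested. The mean of pro-survival minus pro-death genes became 0.469, 0.491 and -0.067 in EWS-OCT4, OCT4 and J1 libraries when Bcl2 was left out, by construction. Same-numbered libraries correlated between -0.036 and 0.283 in their deviations from group means, over 0.1 in 4 of 9 pairs. The replicates numbered 1 correlated at 0.283 between EWS-OCT4 and OCT4, 0.185 between EWS-OCT4 and J1 and 0.218 between OCT4 and J1. Each of these values was above those of the same libraries with other numbers. Not every library correlated best with its own number, so the values do not settle whether the numbers pair the samples. With the replicate block, Bak1 in EWS-OCT4 versus OCT4 (-0.3531, adjusted p = 0.0131) and Bax in OCT4 versus J1 (0.2688, adjusted p = 0.00649) gained a call, and no other member's call changed. Without a low-count filter Bak1 was called in EWS-OCT4 versus J1 (adjusted p = 0.024) and Bax in OCT4 versus J1 (adjusted p = 0.00636). Bcl2, at 4 to 43 counts a library, is limited by depth, and gave no value for OCT4 versus J1 in the 6-library fit.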
